A study of Homo sapiens with 12 samples.

Results

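The genes described here code for the constitutive proteasome and the proteins that regulate it, measured as mRNA in PANC-1 cells, an established human line of pancreatic ductal carcinoma. They were chosen by name: every symbol made of PSM, a letter from A to G and a number, leaving out the immunoproteasome subunits PSMB8, PSMB9 and PSMB10, pseudogenes and antisense transcripts. The rule found 46 of the 23284 genes listed. Of these, 43 reached 1 FPKM in 2 or more libraries and entered the tests. FPKM counts the sequenced fragments of a gene relative to its exon length and to the reads mapped in the library. It is a level per length, so that levels of different genes can be set side by side. The other 3 members were PSMA8, PSMB11 and PSMC1. PSMA8, a subunit of the testis proteasome, was listed at 0 in all 12 libraries, and PSMB11, a subunit of the thymus proteasome, was above 0 in 1 library. PSMC1, an ATPase found in every proteasome, was listed at 0.18 to 0.55 FPKM in degron (++) and 0.22 to 0.52 FPKM in degron (−). The GENCODE v29 annotation names 13 pseudogenes of PSMC1, so this level is uncertain and PSMC1 was left out of all sums. It also names pseudogenes of PSMA2, PSMA6, PSMB3, PSMB7, PSMD4, PSMD7, PSMD8, PSMD10 and PSME2, whose levels may share reads with these copies. PSMC3IP also met the naming rule, although it codes for a factor of meiotic recombination and not for a proteasome subunit.

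Cells of both populations carried a retroviral reporter, the green fluorescent protein ZsGreen fused to the carboxyl-terminal degron of ornithine decarboxylase (ODC), and were kept under G418 selection. A cell that degrades the fusion quickly stays dark, so green fluorescence serves as an inverse readout of proteasome activity. Degron (−) cells were the infected line as a whole, in which few cells were ZsGreen positive, and degron (++) cells were the brightest cells of a line enriched by repeated sorting and culture. The populations therefore also differ in sorting and in time in culture, and neither is described as a single clone. Each population gave 3 groups of 2 libraries: unirradiated cells (0 Gy) at 48 h, and cells that received 4 Gy, collected at 30 h or at 48 h. The labels do not give the starting point of the hours or say whether the 2 libraries came from separate cultures, so p-values measure the spread between these libraries, which may be technical. The libraries taken as degron (−) are named ZsGreen-negative in their titles and d+ in their descriptions. The study also describes a degron (+) line, so these labels conflict and the titles were followed.

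The proteasome degrades most of the short-lived proteins of a cell, usually after they have been marked with ubiquitin. Its 20S core is a barrel of stacked rings of alpha and beta subunits with the catalytic sites of PSMB5, PSMB6 and PSMB7 inside. The 19S particle on the end of the barrel binds ubiquitin chains, removes them, and unfolds and feeds in the substrate with a ring of ATPases, PSMC1 to PSMC6. Other activators, made by PSME1 to PSME4, can take its place, and dedicated chaperones assemble the parts. When proteasome activity falls, cells are known to raise the transcription of many subunit genes together through NFE2L1, which binds antioxidant response elements (ARE) in their promoters.

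All 6 markers set for ductal carcinoma cells (KRT7, KRT8, KRT18, KRT19, EPCAM and VIM) reached 1 FPKM in both populations, but at very different levels for some. VIM lay at 13.2 to 19.2 FPKM in degron (++) and 2376 to 2711 FPKM in degron (−), and EPCAM at 176 to 205 and 29.9 to 52.8 FPKM. No marker of acinar, endocrine, blood or endothelial cells reached 1 FPKM. Of 4 fibroblast markers, LUM and COL1A1 did, at 13.8 to 24.7 and 0.53 to 0.83 FPKM in degron (++) and at 0.29 to 1.6 and 36.5 to 52.3 FPKM in degron (−), while PDGFRA stayed at or below 0.013 FPKM and DCN was listed at 0. Every library was most like another library of its own population (12 of 12), but only 3 of 12 were most like the other library of their own group. The FPKM of a library summed to 829654 to 916877 for degron (++) and to 707273 to 763064 for degron (−), and MIR622 alone held 28.6% to 30.0% and 22.5% to 27.1% of it. The part of these differences in the results on the proteasome was not tested.

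To show the sequences through which these genes can be regulated together, the 150 bases before the RefSeq gene start (GRCh38.p14, 5′ to 3′ on the strand of the gene) are given for 6 members. PSMC4, PSME3, PSME1 and PSMB3 are among those with the largest differences between the populations, and PSMD5 and PSME4 are a chaperone and an activator that differed in opposite directions. Capitals mark the core of the ARE, TGACNNNGC, or GCNNNGTCA when read on the opposite strand.
PSMC4, chr19:39971015-39971164, plus strand: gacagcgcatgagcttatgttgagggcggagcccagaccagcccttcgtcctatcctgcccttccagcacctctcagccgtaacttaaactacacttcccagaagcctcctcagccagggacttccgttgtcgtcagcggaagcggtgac
PSME3, chr17:42833247-42833396, plus strand: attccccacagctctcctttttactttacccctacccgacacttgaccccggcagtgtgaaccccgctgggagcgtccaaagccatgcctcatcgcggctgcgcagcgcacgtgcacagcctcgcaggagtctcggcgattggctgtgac
PSME1, chr14:24136044-24136193, plus strand: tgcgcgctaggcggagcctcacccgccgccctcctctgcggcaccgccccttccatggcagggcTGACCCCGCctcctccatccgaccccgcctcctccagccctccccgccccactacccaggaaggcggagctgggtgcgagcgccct
PSMB3, chr17:38752591-38752740, plus strand: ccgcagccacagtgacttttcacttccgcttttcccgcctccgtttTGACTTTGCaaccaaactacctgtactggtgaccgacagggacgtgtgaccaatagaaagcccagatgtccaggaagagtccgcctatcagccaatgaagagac
PSMD5, chr9:120842923-120843072, minus strand: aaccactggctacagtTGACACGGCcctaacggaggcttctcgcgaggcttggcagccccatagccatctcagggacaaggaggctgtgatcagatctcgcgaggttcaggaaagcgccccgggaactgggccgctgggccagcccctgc
PSME4, chr2:53970994-53971143, minus strand: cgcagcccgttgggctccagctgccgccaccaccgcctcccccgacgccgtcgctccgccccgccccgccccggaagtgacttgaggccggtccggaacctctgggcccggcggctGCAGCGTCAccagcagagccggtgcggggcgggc

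The core is absent from the windows shown for PSMC4 and PSME3, the members with the largest difference in each direction. It occurs once in each of the windows of PSME1, PSMB3, PSMD5 and PSME4. It begins 86 bases before the gene start in PSME1, 104 in PSMB3, 134 in PSMD5 and, on the opposite strand, 34 in PSME4.

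The first question was whether the sorted population with low proteasome activity differed in the mRNA of the proteasome. Across the mean of the 3 conditions, 26 of the 43 tested members were higher in degron (++), 15 were lower and 2 were not called (limma on log2(FPKM + 1), Benjamini-Hochberg adjusted p under 0.05). The background was high, since 42.1% of all 12946 tested genes were called higher and 44.6% were called lower in the same comparison. The median log2 fold change was 0.17 over the members and −0.02 over all tested genes, and the median absolute log2 fold change was 0.43 over the members and 0.50 over all genes. In only 4 members did it exceed 1: PSME3, PSME1 and PSMG2 were higher in degron (++), and PSMC4 was lower. In 27 members it was under 0.5 in either direction. In bulk RNA, a lower level in each cell and fewer cells that express a gene cannot be told apart.

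The 3 conditions gave similar counts. In unirradiated cells, 23 members were higher and 13 lower, against 37.6% and 40.2% of all genes. In irradiated cells at 30 h, 26 were higher and 12 lower, against 38.3% and 40.8% of all genes. In irradiated cells at 48 h, 24 were higher and 13 lower, against 37.1% and 39.6% of all genes. A total of 22 members were called higher in all 3 conditions and 12 were called lower in all 3. The shares of all genes called alike in all 3 conditions were not computed. PSMD1 and PSMD6, subunits of the 19S particle, were the only tested members whose fold changes had both signs among the conditions.

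By library, 24 of the 43 members were higher in every degron (++) library than in any degron (−) library, as were 34.1% of all tested genes. Another 12 were lower in every degron (++) library, as were 37.2% of all genes. The libraries of 7 members overlapped: PSMB4, PSMD1, PSMD6, PSME4, PSMG3, PSMG4 and PSMD9. The spread between the 2 libraries of a group was small, with a median coefficient of variation of 2.37% over the members and groups.

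**Figure D1:**
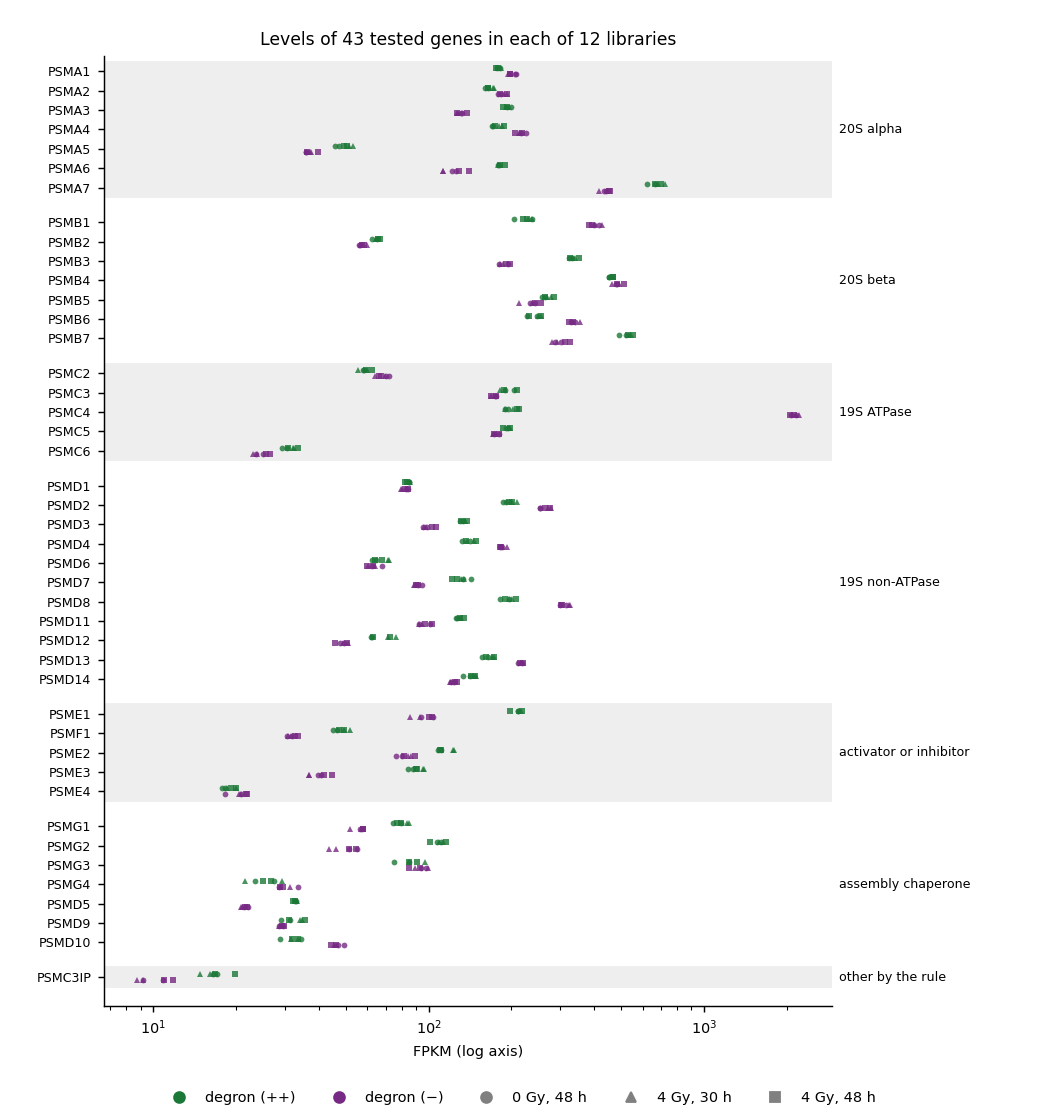
Levels in FPKM (log axis) of the 43 tested members, grouped by their place in the proteasome, with 1 point for each of 12 libraries. Green points are degron (++) and purple points degron (−), and shapes give dose and time. PSMC4 in degron (−) lies at 2049 to 2213 FPKM, above every other member in any library.

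Among the alpha subunits of the 20S core, which form its outer rings and the gate for substrates, 4 of 7 were higher in degron (++) and 3 were lower, with no overlap between libraries in any of them. Counts by class, here and below, stand beside 42.1% of all tested genes called higher and 44.6% called lower. Of all tested genes, 34.1% were higher and 37.2% lower without overlap. PSMA7, the most abundant member in degron (++), was listed at 619 to 719.7 FPKM (median 673) in the 6 degron (++) libraries and 416 to 457 (median 444) in the 6 degron (−) libraries. All 6 libraries of degron (++) lay above those of degron (−) (log2 fold change 0.61, SE 0.0296, limma adjusted p = 4.34e-08). PSMA3 was at 187 to 199 (median 193) against 126 to 138 (median 129) FPKM in degron (++) and degron (−) (log2 fold change 0.56, SE 0.0252, limma adjusted p = 2.45e-08). PSMA6 was at 178 to 189 (median 181) against 113 to 140.1 (median 124) FPKM (log2 fold change 0.56, SE 0.0239, limma adjusted p = 1.85e-08). The 3 lower subunits, PSMA1, PSMA2 and PSMA4, differed less, with log2 fold changes of −0.16, −0.16 and −0.28.

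The beta subunits form the inner rings. PSMB3, which has no catalytic site, was listed at 324 to 352 FPKM (median 333) in the 6 degron (++) libraries and 180.4 to 198 (median 189) in the 6 degron (−) libraries (log2 fold change 0.82, SE 0.0275, limma adjusted p = 3.2e-09). PSMB1, also not catalytic, went the other way, at 205 to 238 (median 229) against 383 to 425 (median 402) FPKM (log2 fold change −0.83, SE 0.0368, limma adjusted p = 2.34e-08). In both genes the libraries of the populations did not overlap.

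The 3 catalytic subunits did not move together. PSMB7, with the trypsin-like activity, was at 494 to 551 FPKM (median 534) in the 6 degron (++) libraries and 281 to 326 (median 298) in the 6 degron (−) libraries (log2 fold change 0.81, SE 0.0244, limma adjusted p = 1.59e-09). PSMB6, with the caspase-like activity, was lower in degron (++), at 228 to 257 (median 249) against 323 to 354 (median 333) FPKM (log2 fold change −0.46, SE 0.0337, limma adjusted p = 9.7e-07). PSMB5, with the chymotrypsin-like activity, was at 258 to 286 (median 267) against 214 to 257 (median 241) FPKM, so that the highest degron (−) library came close to the lowest degron (++) library. Its difference was small (log2 fold change 0.18, SE 0.0332, limma adjusted p = 0.000603) and turned to −0.07 when FPKM were rescaled to the same sum in each library. Summed over the 3 genes, the level was 1045 ± 40.8 FPKM in degron (++) and 875 ± 28.9 FPKM in degron (−) (SD, n = 6), but 0.118% of all FPKM in both populations. All FPKM include MIR622, at 28.6% to 30.0% in degron (++) and 22.5% to 27.1% in degron (−). The shares without it were not computed, so the equal share is shown only for sums that include it.

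The immunoproteasome subunits that can replace them were left out by the rule, but all 3 were also higher in degron (++), with log2 fold changes of 0.85 for PSMB8, 0.96 for PSMB9 and 0.61 for PSMB10. PSMB8 made up 20.3% of the FPKM of PSMB5 and PSMB8 in degron (++) and 13.7% in degron (−), PSMB9 made up 16.5% and 6.81% beside PSMB6, and PSMB10 made up 8.99% and 10.1% beside PSMB7.

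In the base of the 19S particle, 3 ATPases were higher and 2 were lower in degron (++). PSMC4 stood apart from all other members. It was listed at 189 to 213 FPKM (median 198) in the 6 degron (++) libraries and 2049 to 2213 (median 2147) in the 6 degron (−) libraries, a mean 10.7 times as high in degron (−) (log2 fold change −3.41, SE 0.0245, limma adjusted p = 3.26e-13). By the size of its fold change it ranked 201 among the 12946 tested genes. The level of about 200 FPKM in degron (++) was close to those of PSMC3 and PSMC5 there, at means of 194 FPKM each, while in degron (−) PSMC4 exceeded every other member. PSMC6, the tested ATPase with the lowest level, was at 29.4 to 33.5 (median 31.5) against 23.02 to 26.6 (median 24.4) FPKM (log2 fold change 0.34, SE 0.0292, limma adjusted p = 2.77e-06). PSMC2 was at 55.5 to 62.2 (median 58.8) against 63.7 to 72.1 (median 68.4) FPKM (log2 fold change −0.21, SE 0.0294, limma adjusted p = 0.000112). PSMC3 and PSMC5 differed by 0.16 and 0.14 on the log2 scale, and both signs turned on rescaling to equal sums.

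The 11 non-ATPase subunits, which include ubiquitin receptors and the deubiquitinase PSMD14, were split, with 6 higher, 4 lower and PSMD1 not called. PSMD8, a lid subunit, was lower in degron (++), at 182 to 207 FPKM (median 196) in the 6 degron (++) libraries and 299.6 to 326 (median 311) in the 6 degron (−) libraries (log2 fold change −0.67, SE 0.0295, limma adjusted p = 2.16e-08). PSMD7, the structural partner of PSMD14 in the lid, was higher, at 122 to 143 (median 132) against 88.6 to 94.8 (median 90.7) FPKM (log2 fold change 0.53, SE 0.0228, limma adjusted p = 1.91e-08). PSMD12, another lid subunit, was at 61.9 to 75.9 (median 66.96) against 45.9 to 50.9 (median 49.1) FPKM (log2 fold change 0.46, SE 0.04, limma adjusted p = 3.25e-06). The 3 other lower subunits were the scaffold PSMD2 (−0.43), the ubiquitin receptor PSMD4 (−0.39) and the lid subunit PSMD13 (−0.39), and PSMD14 itself was higher (0.22).

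Of the activators and the inhibitor, 4 of 5 were higher in degron (++) with no overlap between libraries, as were 34.1% of all tested genes. PSME3, which forms the nuclear activator PA28 gamma, was at 83.9 to 95.9 FPKM (median 90.5) in the 6 degron (++) libraries and 36.7 to 44.5 (median 40.2) in the 6 degron (−) libraries (log2 fold change 1.16, SE 0.0225, limma adjusted p = 1.06e-10). PSME1, the alpha subunit of the cytoplasmic activator PA28, was at 197 to 219 (median 212) against 85.6 to 104 (median 97.1) FPKM (log2 fold change 1.12, SE 0.0366, limma adjusted p = 2.73e-09). Its partner PSME2 was at 108 to 123 (median 111) against 76.5 to 89.2 (median 83.03) FPKM (log2 fold change 0.46, SE 0.0257, limma adjusted p = 1.26e-07). PSMF1, which codes for the inhibitor PI31, was at 44.97 to 51.8 (median 48.4) against 30.7 to 33.5 (median 31.8) FPKM (log2 fold change 0.58, SE 0.0234, limma adjusted p = 1.19e-08). PSME4, the activator PA200, was the exception, at 17.8 to 20.05 (median 18.8) against 18.2 to 21.9 (median 20.9) FPKM with overlapping libraries (log2 fold change −0.12, SE 0.0366, limma adjusted p = 0.0122).

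Of 7 assembly chaperones, 4 were higher, 2 were lower and PSMG3 was not called. PSMG2, which forms a pair with PSMG1 and places alpha subunits in the ring, was at 101 to 115 FPKM (median 109.8) in the 6 degron (++) libraries and 43.5 to 54.9 (median 51.5) in the 6 degron (−) libraries (log2 fold change 1.11, SE 0.0371, limma adjusted p = 3.27e-09). PSMG1 itself was higher by 0.49 on the log2 scale. PSMD5, a chaperone of the 19S base, was at 32.3 to 33.3 (median 32.9) against 20.8 to 22.2 (median 21.4) FPKM (log2 fold change 0.59, SE 0.0198, limma adjusted p = 3.3e-09). PSMD10, or gankyrin, another chaperone of the base, was lower, at 28.9 to 34.4 (median 32.7) against 44.1 to 49.5 (median 46.2) FPKM (log2 fold change −0.51, SE 0.0434, limma adjusted p = 2.83e-06). PSMC3IP, which is no part of the proteasome, was at 14.7 to 19.8 (median 16.6) against 8.75 to 11.8 (median 10.02) FPKM (log2 fold change 0.68, SE 0.054, limma adjusted p = 1.58e-06).

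**Figure D2:**
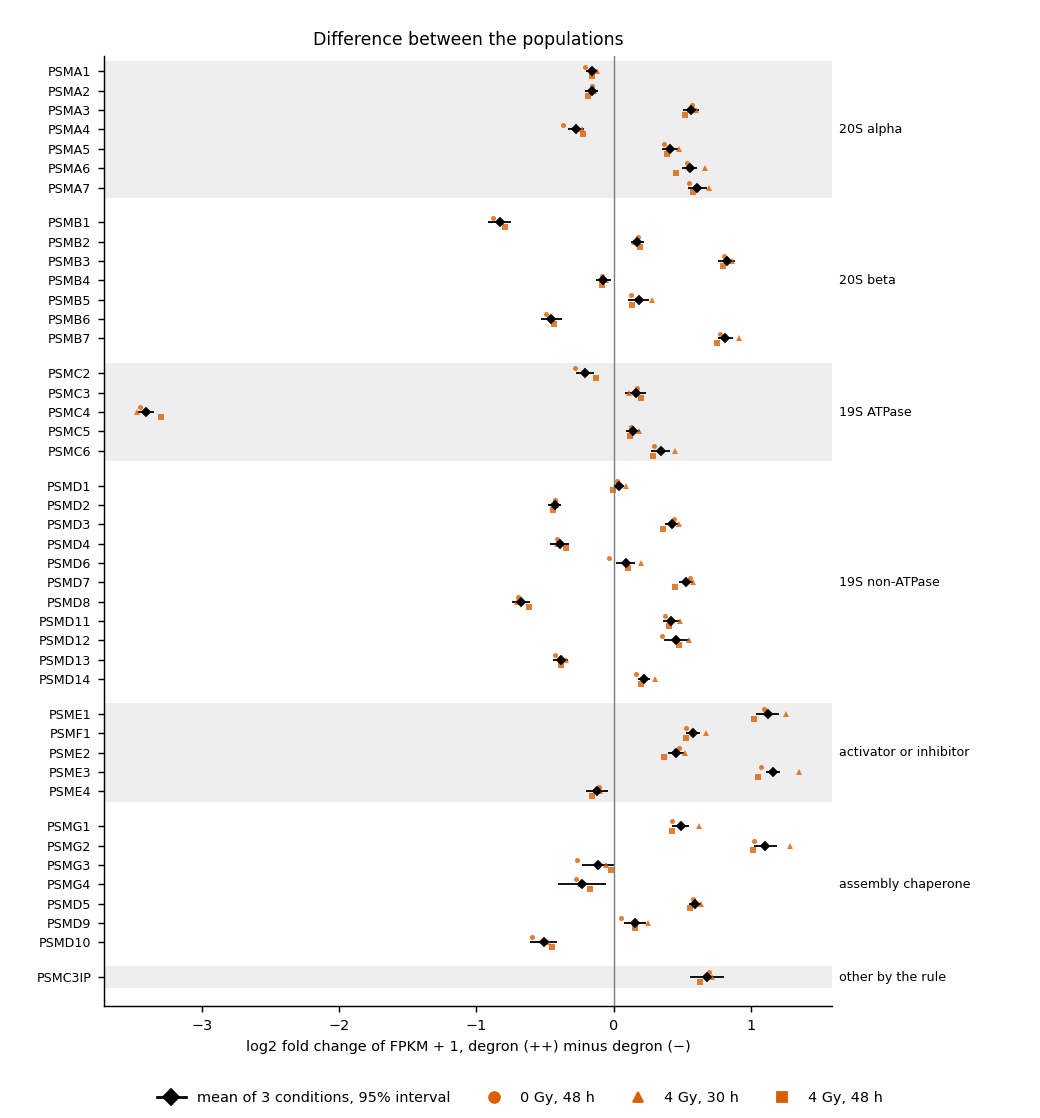
Log2 fold change of FPKM + 1, degron (++) minus degron (−), for the 43 tested members. Black diamonds are the mean of the 3 conditions with its 95% interval from limma, and orange points are the single conditions. PSMC4 lies at −3.41, and PSME3, PSME1 and PSMG2 lie between 1.11 and 1.16.

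Levels within a complex were uneven although its subunits are built in at equal numbers. In degron (++) the mean FPKM of the highest 20S subunit, PSMA7, was 13.6 times that of the lowest, PSMA5, and in degron (−) the highest, PSMB4, was 13.1 times PSMA5. In the 19S particle the span from the lowest, PSMC6, to the highest, PSMC4, was 6.34 times in degron (++) and 86.5 times in degron (−). Without PSMC4 it was 6.27 times, up to PSMD2, and 12.7 times, up to PSMD8. When the 43 members were ordered by mean level, 30 of the 42 neighbouring pairs in degron (++) and 29 of 42 in degron (−) had overlapping libraries and so could not be told apart by their spread.

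The summed level of the 20S subunits was higher in degron (++) as deposited, and that of the 19S subunits without PSMC4 overlapped. The 14 subunits of the 20S core summed to 3755 ± 104 FPKM in degron (++) and 3344 ± 71.8 FPKM in degron (−) (SD, n = 6), a ratio of 1.12. The ratio was 1.22 for the alpha and 1.06 for the beta subunits. As a share of all FPKM of a library the order of the 20S sum turned, at 0.426% ± 0.0062 in degron (++) and 0.452% ± 0.0091 in degron (−) (SD, n = 6), while the alpha subunits were at 0.184% and 0.180% and the beta subunits at 0.242% and 0.272%. All FPKM include MIR622, at 28.6% to 30.0% in degron (++) and 22.5% to 27.1% in degron (−). Shares without MIR622 were not computed, so the turned order is shown only for sums that include it. On rescaling without MIR622 the median log2 fold change was 0.26 over the alpha and 0.02 over the beta subunits. It was −0.17 over all tested genes on that scale. The 16 tested 19S subunits summed to 2136 ± 54.5 and 4157 ± 70.9 FPKM, of which PSMC4 held 9.35% and 51.3%. Without PSMC4 the 19S sums were 1936 ± 51.9 and 2026 ± 26.3 FPKM, a ratio of 0.956, and the highest degron (++) library (1993) lay above the lowest degron (−) library (1989). The 20S sum was 1.92 to 1.97 times this 19S sum in degron (++) libraries and 1.61 to 1.69 times in degron (−) libraries, with no overlap. PSME1 and PSME2 together were also higher relative to the core, at 0.0825 to 0.0893 of the 20S sum in degron (++) and 0.051 to 0.0558 in degron (−), with no overlap. Ratios within a library do not depend on its scaling.

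**Figure D3:**
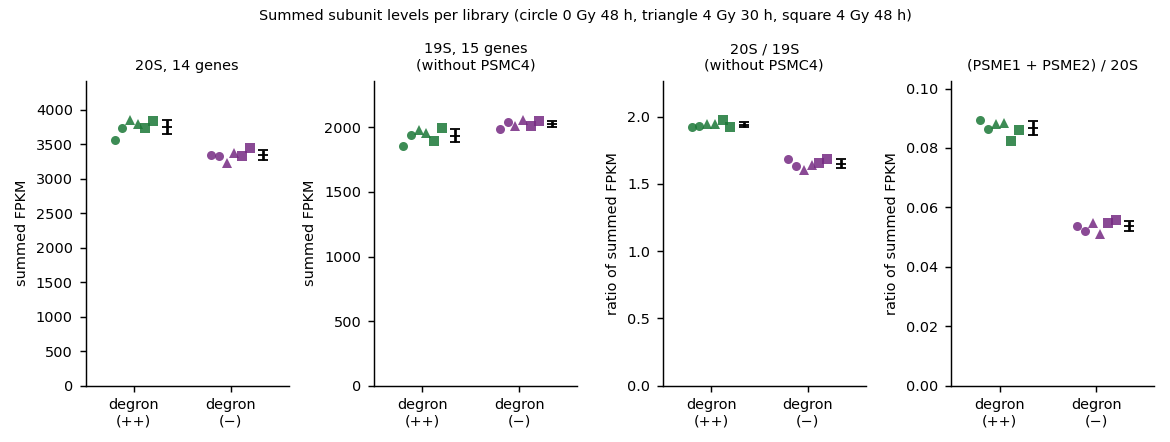
Summed FPKM of the 20S subunits and of the 19S subunits without PSMC4, and the ratios of the 20S to this 19S sum and of PSME1 and PSME2 to the 20S sum. Each point is a library, coloured by population and shaped by dose and time, and bars give the mean and SD of the 6 libraries. The populations are apart in both ratios and in the 20S sum, while the 19S sums overlap.

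How many members counted as higher depended on the scale. Rescaling each library to the same sum (TPM) moved the median log2 fold change of all tested genes from −0.02 to −0.24 and that of the members from 0.17 to −0.08. It gave 19 members higher and 23 lower, and the share of higher genes among all genes called fell from 48.6% to 34.7%. Among the members called as deposited, the sign turned for 7 with small differences: PSMB2, PSMB5, PSMC3, PSMC5, PSMD6, PSMD14 and PSMD9. PSMD1, not called as deposited, also turned, from 0.04 to −0.21, and was then called lower. Rescaling without MIR622 moved the medians to −0.17 over all genes and 0.02 over the members, and gave 20 members higher and 17 lower. Of all genes called on that scale, 39.9% were higher. The sign turned for the called members PSMC5 and PSMD6, and PSMD1 went to −0.12. With TPM the class medians of the beta subunits (−0.08), the ATPases (−0.11), the non-ATPases (−0.16) and the chaperones (−0.09) also lay below 0, while those of the alpha subunits (0.17) and of the activators and inhibitor (0.33) stayed above. Under all 4 other scalings tried, 33 members kept their call and its direction, 19 higher and 14 lower, among them PSMC4, PSME1, PSME3, PSMG2, PSMB1, PSMB3 and PSMB7. The share of all tested genes that did so was not computed, so this count has no background beside it.

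The second question was whether irradiation changed the proteasome genes. With 4 Gy against 0 Gy at 48 h, limma called 0 of 43 members in degron (++), against 1.82% of all genes, and 2 at an unadjusted p under 0.05. In degron (−) it called 0 of 43, against 4.73% of all genes, and 7 at an unadjusted p under 0.05. Shares of all genes, here and for the changes over time, are at the adjusted threshold. No share was computed at the unadjusted p, so these counts have no background beside them. The 95% intervals of the members reached from −0.28 to 0.34 in degron (++) and from −0.39 to 0.39 in degron (−), so changes by more than these log2 values were outside the interval of every member. The dose difference was not called as different between the populations in any member either (0 of 43, against 0.0772% of all genes, and 2 at an unadjusted p under 0.05).

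The third question was whether they changed between 30 h and 48 h after 4 Gy. In degron (++), 0 of 43 members were called, against 1.21% of all genes, and 4 had an unadjusted p under 0.05. In degron (−), 2 members were called, against 7.18% of all genes, and both rose. PSMA6 was at 113 and 113 FPKM at 30 h and at 129 and 140.1 FPKM at 48 h (log2 fold change 0.25, SE 0.0413, limma adjusted p = 0.00915). PSME3 was at 36.9 and 36.7 FPKM and then 41.6 and 44.5 FPKM (log2 fold change 0.22, SE 0.0389, limma adjusted p = 0.0123). The libraries of the times did not overlap in either gene, which for genes picked by the threshold, with 2 libraries a time, is no separate support. Both calls were lost when either 30 h library or replicate 2 at 48 h was left out, with limma adjusted p of 0.0502 to 0.0646 for PSMA6 and 0.0677 to 0.0917 for PSME3. Over all alternatives, the limma adjusted p was 0.00493 to 0.115 for PSMA6 and 0.0105 to 0.123 for PSME3. PSMA6 has 4 pseudogenes named in GENCODE v29, so reads may be shared with these copies.

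PSME3 was also the only 1 of 43 members whose change over time differed between the populations by limma, against 3.23% of all genes. It was at 95.1 and 95.9 FPKM at 30 h and 90.2 and 90.7 FPKM at 48 h in degron (++), a difference of −0.08 on the log2 scale that was not called. At an unadjusted p under 0.05 there were 11 members, for which no share of all genes was computed. In PSME3 the difference of the 2 time effects was −0.30 (SE 0.0550, limma adjusted p = 0.0288). This call was lost when any of the libraries at 4 Gy other than degron (−) at 48 h, replicate 1, was left out, with limma adjusted p of 0.0802 to 0.0985, and over all alternatives it was 0.0173 to 0.112. The population difference of PSME3 was 1.08 in unirradiated cells, 1.35 in irradiated cells at 30 h and 1.06 in irradiated cells at 48 h, the widest range over the conditions of any tested member.

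**Figure D4:**
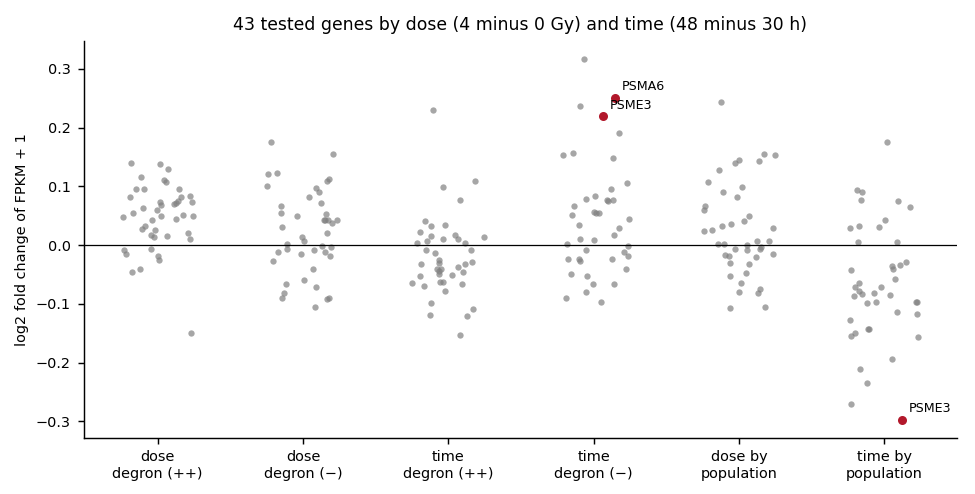
Log2 fold changes of the 43 tested members by dose (4 minus 0 Gy at 48 h), by time (48 minus 30 h at 4 Gy) and for the difference of these effects between the populations. Each point is a gene, and red points passed the threshold. PSMA6 and PSME3 were called over time in degron (−), and PSME3 in the difference between the populations.

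Genes around the members along the chromosome were also examined, since PSMC4 and PSMD8 lie in a stretch of chromosome 19 in which many genes were lower in degron (++). Of the 20 tested genes nearest to PSMC4, 10 on each side in the RefSeq order, all 20 were lower, with a median log2 fold change of −3.38 (FBL −3.84, DLL3 −5.16). Those nearest to PSMD8 had a median of −1.64, and 18 of 20 were lower. Around PSMB3 on chromosome 17, 20 of 20 neighbours were higher, with a median of 0.83. Around PSME3 on the same chromosome, 17 of 20 were higher, with a median of 0.74.

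Over the 43 members, the fold change and the median of up to 20 neighbours had a Pearson r of 0.912 and a Spearman rho of 0.826, and without PSMC4 a Pearson r of 0.798. These are descriptions across genes, which share the same 12 libraries and in places the same neighbours. The member lay on the same side of 0 as its neighbours in 36 of 43 genes (83.7%), and so did 66.5% of 12503 other genes, over which r was 0.355. All 6 members on chromosome 14 (PSMA3, PSMA6, PSMB5, PSMC6, PSME1 and PSME2) and 7 of 8 on chromosome 17 were above 0, while all 3 on chromosome 7 were below 0, and all tested genes of these chromosomes had medians of 0.24, −0.03 and −0.13. With TPM rescaling PSMB5 and PSMC5 turned below 0. On chromosomes 1, 2, 3 and 11 the members lay on both sides of 0 as deposited. The other 7 of the 43 members, PSMA1, PSMB2, PSMD1, PSMD6, PSMD9, PSMD10 and PSMG1, had the opposite sign to their neighbour median. PSMB2 (0.17 beside −0.38) and PSMD9 (0.16 beside −0.20) had the fewest neighbours on their own side of 0, 4 and 6 of 20. PSMD10 was at −0.51 beside 0.10. With TPM rescaling PSMB2, PSMD1, PSMD6 and PSMD9 also turned below 0, and neighbour medians were not recomputed on that scale. The neighbours of PSMD10, PSMG1, PSMA1 and PSMD1 lay about evenly on both sides of 0, and with 25 genes on each side their medians had the sign of the member. What lies behind this likeness was not tested.

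**Figure D5:**
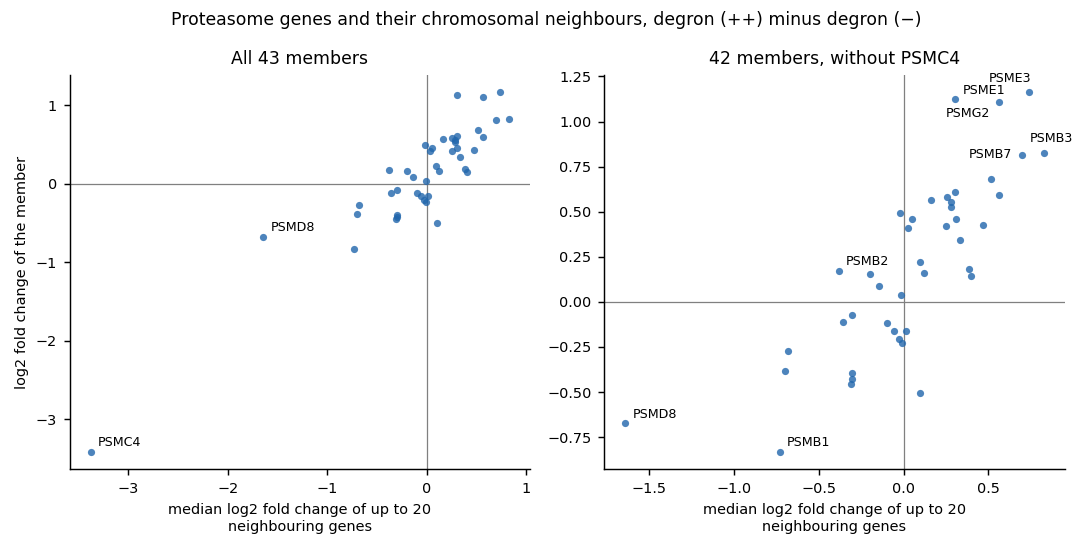
Log2 fold change of each member, degron (++) minus degron (−), against the median log2 fold change of up to 10 tested genes on each side of it, for all 43 members and without PSMC4. Points lie mostly along the diagonal, with PSMC4 at −3.41 and its neighbours at −3.38, and PSMB2 at 0.17 with its neighbours at −0.38.

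The table of RefSeq promoters used here matched 40 of the 46 members, and was without an entry for PSMA7, PSMB1, PSMB6, PSMB7, PSMD4 and PSMG3. The ARE core TGACNNNGC occurred on either strand within 250 bases before the gene start in 12 of the 40 (30.0%), in 16.0% of 8982 tested genes with such an entry and in 13.2% of all 27305 genes with one. The core is short and allows any base at 3 places, so a match is not a binding site. Of the tested members, those with a match had a median log2 fold change of 0.46 between the populations, 10 above 0 and 2 below, and those without a match had a median of 0.16, 15 above 0 and 10 below. With TPM rescaling PSMC5 and PSMD9, which had a match, turned below 0. So did PSMB2, PSMB5, PSMC3, PSMD1, PSMD6 and PSMD14, which had none. The same split over all genes was not computed, and a role of the core in these differences was not tested. The CCAAT box, on either strand, occurred in 47.5% of the members, 41.9% of the tested genes and 37.0% of all genes, and the AP-1 site TGAGTCA in 7.5%, 4.3% and 5.2%. The AP-1 site read on the opposite strand, TGACTCA, lies inside a match to the ARE core where GC follows it.

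Of 18 other proteins that bind, feed or assemble the proteasome, all tested, 14 were higher, 3 were lower and 1 was not called in the mean of the 3 conditions, with a median of 0.24, against 42.1% and 44.6% of all tested genes and a median of −0.02. The largest differences were in RAD23B, a shuttle that carries ubiquitinated proteins to the proteasome, at 139 ± 5.82 FPKM in degron (++) and 59.7 ± 3.65 FPKM in degron (−) (SD, n = 6, log2 fold change 1.21), and in KIAA0368, a proteasome adaptor and scaffold, at 40.5 ± 0.917 and 20.8 ± 1.44 FPKM (0.93). With TPM rescaling 8 were higher, 6 were lower and the median was −0.01, beside −0.24 over all tested genes, of whose calls 34.7% were higher. In the list of 15 genes that control the transcription of proteasome genes, 4 of 14 tested genes were higher and 9 lower, against the same shares of all genes, with a median of −0.18. With TPM rescaling its median was −0.43. In it MAFF, a small MAF protein that pairs with NFE2L1 and NFE2L2, was at 32.8 ± 3.48 and 11.8 ± 3.03 FPKM (1.43), and MAFK was at 19.995 ± 1.97 and 48.6 ± 2.41 FPKM (−1.24). NFE2L1 itself was at 68.4 ± 3.24 FPKM in degron (++) and 83.5 ± 2.39 FPKM in degron (−), a log2 fold change of −0.28. NFE2L1 is known to be controlled largely as a protein, which these data do not measure.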

How the data were processed

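RNA sequencing of 12 PANC-1 libraries was used, 2 in each of 6 groups assigned by the titles. Per the submitters' processing notes, TopHat2 2.1.1, Bowtie2 2.2.8, SAMtools 0.1.18 and Cuffdiff 2.2.1 were used with hg19, on libraries from a stranded mRNA kit. The authors deposited FPKM per gene symbol, scaled to exon length and to mapped reads. They hold no counts, so depth is unknown. Relative depth was estimated as 0.877 to 1.19. It is the inverse of the commonest FPKM ratio of low genes between a library and the first unirradiated degron (++) library. Reads shared with pseudogenes may be split or lost.

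From these, log2(FPKM + 1) was tested with limma 3.58.1 in R 4.3.3 (6 group means, eBayes with trend, all 12 libraries) on the 12946 genes that reached 1 FPKM in 2 or more libraries. P-values were adjusted over all of these by Benjamini-Hochberg, with a threshold of 0.05. Fold changes on this scale understate those of low genes. Summed FPKM, ratios and positions were described without a test. Python 3.11.15, numpy 2.4.6, pandas 2.3.3 and matplotlib 3.10.9 were used. Gene order and promoters came from RefSeq on GRCh38.p14, another build than that of the files, which gave names and order only. It placed 12549 of the tested genes.

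Members and lists were chosen with earlier results of these data known. Values are given for catalytic subunits, activators, the 3 largest differences of each class, and members called by dose, time or interaction, and for the 2 largest differences of each further list. Other genes named, among them NFE2L1, the other subunits given by their log2 fold changes and the neighbours on the chromosome, were chosen after their values were seen. Alternatives were a pseudocount of 0.1, no filter and a filter at FPKM 5, 4 other scalings, eBayes without trend, the replicate block, only the libraries compared, and leaving out each library. Windows of 5 and 25 neighbours, and leaving out PSMC4, were added after seeing the data. The labels do not say whether replicate numbers pair the libraries, and apart from the replicate block the fits took them as unpaired. Over the 15 pairs of groups, the deviations of libraries with the same number correlated at −0.04 to 0.12 over all tested genes. Over the members alone they correlated at −0.40 to 0.58.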

Additional observations from a re-analysis of the deposited data

Results flagged for a closer look

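The change of PSME3 between 30 h and 48 h after 4 Gy differed between the populations by the interaction term of limma, by −0.30 on the log2 scale (adjusted p = 0.0288). PSME3 was higher at 48 h than at 30 h in both degron (−) libraries and lower in both degron (++) libraries. These are the libraries that gave the call, so this is no separate support. The call was lost when most single libraries at 4 Gy were left out. Groups of 2 libraries are too small to look for single outlying libraries.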

How the results depend on the processing

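The population difference of the 23 named members was recomputed under the alternatives, and 480 of 483 values kept their direction and their side of the threshold. These members were chosen mostly for large differences. Of 36 changes of call or sign over all 43 members and these alternatives, 33 fell in 10 of the other 20 members, mostly PSMD6, PSMG3 and PSMD1. The other 3 belonged to PSMB5, at 0.06 with quantile normalization, 0.03 when libraries were rescaled without MIR622, and −0.069 with TPM rescaling. TPM rescaling gave 19 lower members in irradiated cells at 30 h, 12 higher ones in irradiated cells at 48 h, and 23 lower in the mean of the 3 conditions. Of all genes called on that scale, 33.3%, 31.7% and 34.7% were higher in these comparisons. Quantile normalization gave 1 member by dose in degron (++) and 2 in degron (−), and called 149 and 710 of all 12946 tested genes there. By time in degron (−), TPM rescaling gave 0 members, rescaling without MIR622 gave 5, a fit of only the libraries compared gave 0, and leaving out single libraries gave 0 to 2. For the difference of the time effects between populations, TPM rescaling, eBayes without trend and only the libraries compared gave 0 each, and leaving out single libraries gave 0 to 2. Among all tested genes, TPM rescaling called 611 by time in degron (−). Rescaling without MIR622 called 916 there, and only the libraries compared called 7. For the difference of the time effects, TPM rescaling called 225, eBayes without trend 335 and only the libraries compared 128. With the replicate block, 26 members were higher and 15 lower in the mean of the 3 conditions, as without it. The block gave 3 members by time in degron (−), where it called 796 of all tested genes, and changed no other count of members by over 1.5 times. A fit of only the libraries compared was not run for the mean of the 3 conditions, since it uses all 12 libraries. The Pearson r with the neighbours was 0.869 and 0.874 with 5 and 25 on each side. The causes of these changes were not tested. The depth is unknown, and with 2 libraries a group the time calls rest on small spreads.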

Other observations

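The direction of the members over time in degron (−) was set beside their population difference in unirradiated cells, which uses none of the same libraries. This was chosen after the values were seen, and is given as a description. Of the 23 members that were higher in degron (++) without irradiation, 20 (87.0%) were above 0 from 30 h to 48 h in degron (−), with a median of 0.08. Of the 13 that were lower, 2 (15.4%) were above 0, with a median of −0.03. The 9 members with an unadjusted p under 0.05 over time in degron (−), among them PSMA6, PSME3, PSMG2 and PSMB7, were all above 0, and 8 of them were called higher in degron (++) without irradiation. This was not particular to the proteasome: of the other tested genes, 81.0% of 4841 that were higher in degron (++) were above 0 over time in degron (−), and 24.2% of 5185 that were lower. In degron (++) the shares of the other genes above 0 were 49.9% and 49.7%, and those of the members were 30.4% and 38.5%.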
